A study of Mus musculus with 36 samples.

Results

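Plac8, Ms4a4c, Sectm1a and Fgl2 are 4 mouse genes that stood high in primary microglia lacking Usp18, and their levels were followed here across every genotype, siRNA, time and deposition run of the series. They were read by 6 probe sets of the 22690 on the array, and they are 4 of the 12394 genes with a probe set of their own. The genes were chosen on their measured values in knockout or interferon-treated microglia, so the knockout-against-wild-type differences and the interferon responses of microglia are given as a description with no test. Tests were run on the Usp18 point mutant against its own wild type and on the BV-2 cell line. The BV-2 arrays lie outside the choice, but the interferon-treated arrays of the point mutant and of its wild type may have entered it, so the tests of the point mutant at 6 h and 24 h are not independent of the choice.

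Total RNA of 36 samples was hybridised to Affymetrix 3' expression arrays. Primary microglia gave 24 of them and BV-2 cells 12, BV-2 being an immortalised mouse microglial line. The microglia came from Usp18 knockout mice (KO) with wild-type (WT) microglia deposited in the same run, and from USP18_C61A mice (C61A) with WT microglia of their own run. The BV-2 cells were given an siRNA against Usp18 or a control siRNA. Each of these 6 kinds of cell was sampled untreated (0 h) and after 6 h and 24 h in IFN-b at 500 U/ml, with 2 arrays in each of the 18 groups. The labels call the arrays biological replicates but do not say whether they came from separate animals, so the p-values measure the spread between these samples. The labels used here state no age, sex, strain background or purity of the microglia, nor what the deposition runs were. Array medians ran from 5.59 to 5.83 log2 units, and no pair of arrays was identical (highest correlation 0.995).

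Usp18 is an interferon-induced protease that removes the ubiquitin-like modifier ISG15 from proteins. Independently of that activity it binds the type I interferon receptor and restrains its signalling, so that cells without it respond more strongly and for longer. C61A replaces the catalytic cysteine of the protease. Plac8 is a small cysteine-rich protein of myeloid cells. Ms4a4c belongs to the Ms4a family of membrane-spanning proteins, several of which mark myeloid cells. Sectm1a is one of the mouse counterparts of human SECTM1, which in human cells is a ligand of the T-cell protein CD7. Fgl2, fibrinogen-like protein 2, exists as a membrane enzyme that activates prothrombin and as a secreted form that binds the inhibitory receptor Fcgr2b.

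The genes lie at separate places in the genome (GRCm38.p6, RefSeq gene spans). Plac8 spans chr5:100551589-100572253 and Fgl2 chr5:21372673-21378386, Ms4a4c spans chr19:11404717-11427246 and Sectm1a chr11:121067395-121097153. Because the members stood high together, the 250 bases before their RefSeq starts were searched on both strands for GAAA, any 2 bases and GAAA, the core of the interferon-stimulated response element (ISRE), and for TTCNNNGAA, the palindromic core of the gamma-activated site. RefSeq windows of GRCm38.p6 were given for 3 of the 4 members, 4 windows in all, and none for Sectm1a. The sequences run 5′ to 3′ towards the start, and capitals mark a motif match. The windows are chr5:21372423-21372672 (plus strand) for Fgl2, chr19:11407411-11407660 (plus strand) for Ms4a4c, and chr5:100572206-100572455 and chr5:100563097-100563346 (minus strand) for the upstream and downstream starts of Plac8.
Fgl2: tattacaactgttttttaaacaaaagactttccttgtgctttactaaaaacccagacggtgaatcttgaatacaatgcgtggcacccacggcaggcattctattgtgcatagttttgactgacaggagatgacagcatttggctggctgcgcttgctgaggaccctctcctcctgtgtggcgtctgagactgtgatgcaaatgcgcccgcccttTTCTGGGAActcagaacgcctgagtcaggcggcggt
Ms4a4c: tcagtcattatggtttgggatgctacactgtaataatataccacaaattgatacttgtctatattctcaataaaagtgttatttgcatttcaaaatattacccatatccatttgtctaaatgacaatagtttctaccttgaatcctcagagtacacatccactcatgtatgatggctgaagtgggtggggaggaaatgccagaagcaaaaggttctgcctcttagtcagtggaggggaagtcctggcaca
Plac8 upstream start: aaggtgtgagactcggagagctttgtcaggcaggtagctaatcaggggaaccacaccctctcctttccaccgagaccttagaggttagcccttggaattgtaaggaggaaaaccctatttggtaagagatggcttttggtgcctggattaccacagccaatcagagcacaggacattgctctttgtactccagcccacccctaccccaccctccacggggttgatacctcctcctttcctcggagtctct
Plac8 downstream start: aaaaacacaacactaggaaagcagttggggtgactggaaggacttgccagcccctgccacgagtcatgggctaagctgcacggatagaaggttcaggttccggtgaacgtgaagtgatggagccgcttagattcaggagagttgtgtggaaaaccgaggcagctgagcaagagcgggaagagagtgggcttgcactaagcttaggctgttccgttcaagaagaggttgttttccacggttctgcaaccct
Only the Fgl2 window held a match, TTCTGGGAA, from 36 to 28 bases before the start. The Ms4a4c window lies inside the Ms4a4c gene span, so the bases before the outermost start of that span were not searched. Among 32851 promoter windows of the same length 7.02% held TTCNNNGAA and 2.98% the ISRE core. Over the whole RefSeq windows of 300 bases, which run 50 bases past the start, the Fgl2 window was again the one of the 4 with a match, and the shares were 8.30% and 3.44%. A match of letters is a description and not a bound site.

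Usp18 itself was checked first. KO microglia read 4.40 and 3.77 for Usp18 when untreated, 6.42 and 5.85 at 6 h and 5.92 and 5.97 at 24 h, against 5.68 and 5.99, 12.56 and 12.41, and 11.15 and 10.71 in WT of the same run. It was lower in KO by limma at 6 h (-6.35 ± 0.91 log2 units, SE, n = 2 arrays each, adjusted p = 0.00226) and at 24 h (-4.99 ± 0.91, adjusted p = 0.00147), and the untreated difference did not pass (-1.75 ± 0.91, adjusted p = 0.199). Whether the probe set lies in the deleted part is not stated. In BV-2 cells the arrays labelled Usp18 siRNA read 7.92 and 9.0, 11.10 and 12.49, and 11.07 and 11.48 at 0, 6 and 24 h, against 8.38 and 8.59, 12.15 and 12.04, and 11.51 and 11.73 with control siRNA. None of these differences passed (-0.02, -0.29 and -0.34, each ± 0.45, adjusted p from 0.632 to 1.00), so the target was not measurably lower in the arrays labelled Usp18 siRNA. A total of 3 arrays stood apart from their labels. Untreated WT replicate 1 of the C61A run read 12.97 for Usp18, level with the treated WT arrays of that run (12.67 to 12.95), while replicate 2 read 9.31. C61A replicate 2 at 6 h read 10.71 against 13.04 in replicate 1. The BV-2 array labelled Usp18 siRNA, 6 h, replicate 2 read 9.96 for the complement gene C1qa, which lay between 3.54 and 5.10 on the other BV-2 arrays and at 10.52 or above on the microglia arrays.

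Plac8 and Sectm1a were low in WT microglia at every time and high in KO microglia, most of all under IFN-b. Plac8 read 8.10 and 5.65 in untreated KO microglia, 9.53 and 7.81 at 6 h and 9.13 and 9.25 at 24 h, against 3.49 and 3.23, 3.88 and 4.10, and 3.73 and 3.67 in WT of the same run. Sectm1a read 7.98 and 5.07, 10.45 and 8.5, and 9.83 and 9.72 in KO, against 3.02 and 3.07, 4.88 and 5.45, and 3.75 and 3.21 in WT. For both genes the KO and WT arrays did not overlap at any time, 5 of 6 KO arrays lay above their array's median, and 0 of the 18 other microglia arrays did. The KO minus WT difference was 3.52, 4.67 and 5.49 log2 units for Plac8 at 0, 6 and 24 h, and 3.48, 4.31 and 6.30 for Sectm1a, which at 24 h is 45.0-fold and 78.5-fold on the intensity scale. The untreated KO replicates themselves differed by over 2 log2 units in both genes, replicate 1 being the higher, and at 24 h they were level. With a single KO array the untreated difference was 2.29 or 4.74 for Plac8 and 2.02 or 4.94 for Sectm1a. Markers of other brain cells differed between the same 2 untreated KO arrays: replicates 1 and 2 had means of 4.81 and 5.96 over 9 astrocyte genes, 4.19 and 5.16 over 6 neuron genes and 5.64 and 6.24 over 7 oligodendrocyte genes, and the part of these cells in the members' values was not tested.

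Ms4a4c and Fgl2 behaved otherwise: both were high in untreated KO microglia, and WT microglia of the same run came close to KO after 6 h of IFN-b. At 24 h WT stayed close to KO for Ms4a4c, whereas for Fgl2 it lay further below. Ms4a4c read 12.73 and 12.11 in untreated KO microglia, 12.85 and 12.58 at 6 h and 12.87 and 12.86 at 24 h, against 5.12 and 5.34, 11.65 and 11.51, and 12.09 and 12.01 in WT. Its KO minus WT difference was 7.19 log2 units untreated, 145.5-fold, and 1.13 and 0.81 at 6 h and 24 h. Fgl2 read 10.94 and 9.55 in untreated KO, 11.04 and 10.77 at 6 h and 11.01 and 10.93 at 24 h, against 5.04 and 5.65, 10.37 and 10.20, and 9.21 and 8.44 in WT. Its difference was 4.90 untreated, 0.62 at 6 h and 2.15 at 24 h, and both WT arrays at 24 h lay below both at 6 h. The second probe sets moved alike: 1450291_s_at of Ms4a4c correlated with 1420671_x_at at 0.988 over the 36 arrays, and 1421854_at of Fgl2 with 1421855_at at 0.991. Both Ms4a4c probe sets carry a suffix for probes that can match other transcripts.

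**Figure D1:**
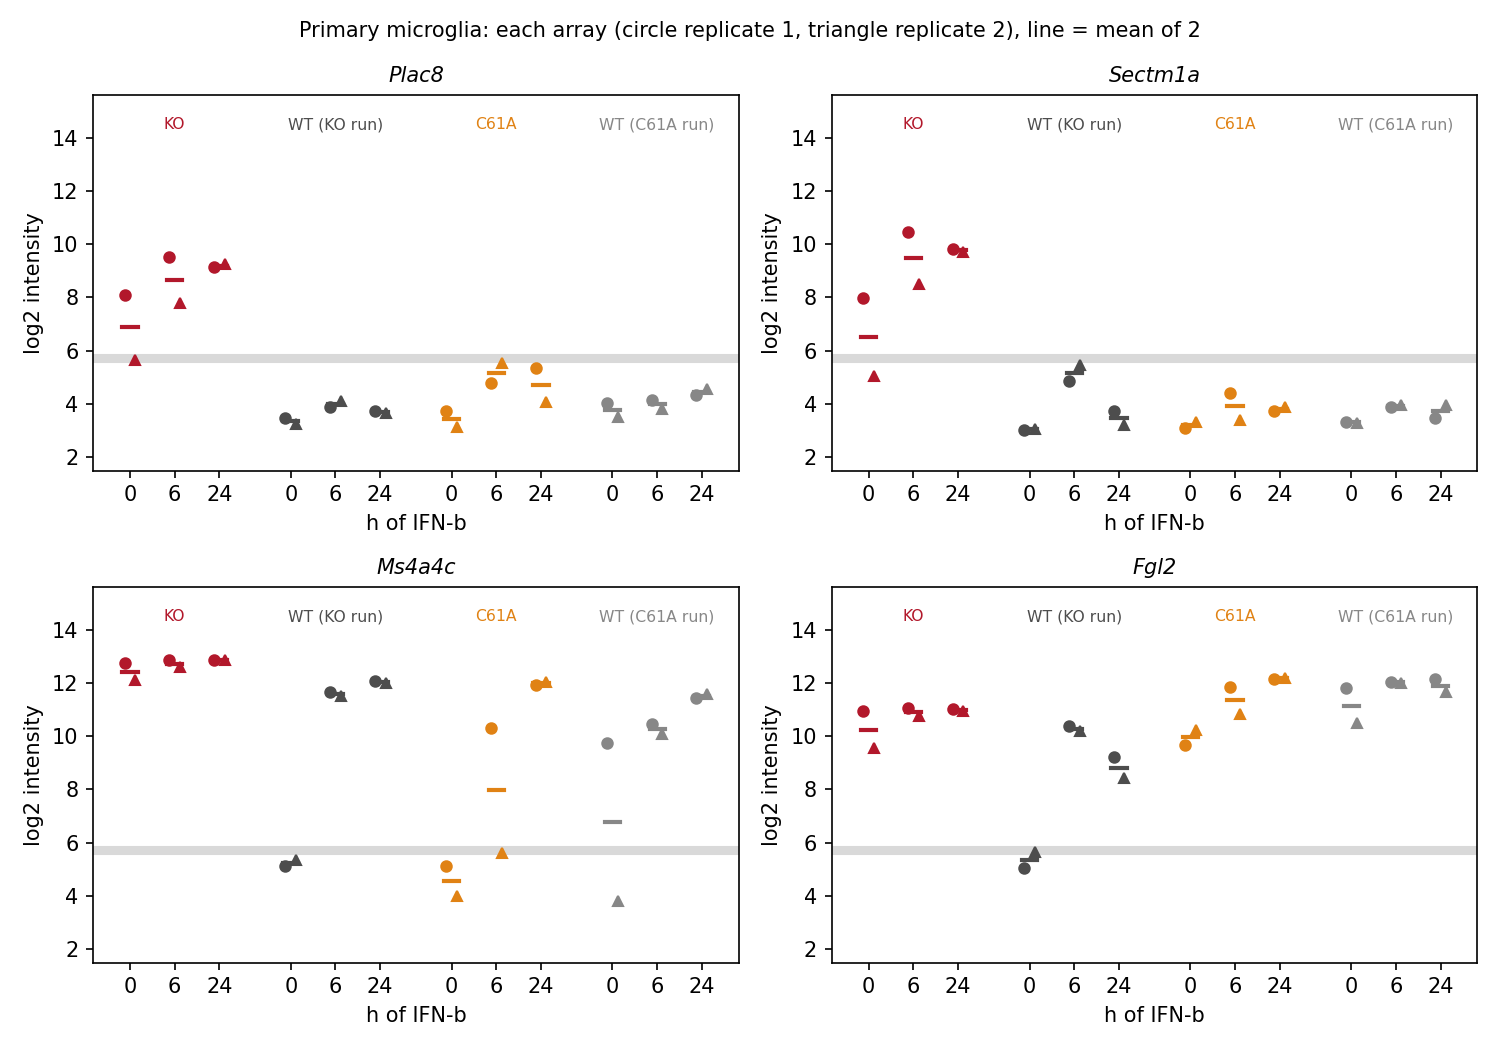
Log2 intensity (vertical axes) of the 4 members on each of the 24 microglia arrays by hours of IFN-b (horizontal axes); circles are replicate 1, triangles replicate 2, short lines the mean of 2, and the grey band the range of array medians (5.59 to 5.83). Plac8 and Sectm1a lie above the band on 5 of 6 KO arrays each and on 0 of the 18 other microglia arrays, while Ms4a4c and Fgl2 are also high in treated WT and C61A microglia.

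In every one of the 3 KO minus WT comparisons all 4 members had both KO arrays above both WT arrays, which was true of 25.5% of the 7960 genes tested untreated, 20.0% at 6 h and 30.2% at 24 h, and nothing is read from it because these contrasts chose the members. By size of the difference Ms4a4c ranked 7 of 7960 genes in the untreated comparison, Fgl2 35, Plac8 84 and Sectm1a 87. At 24 h the order had turned, with Sectm1a at 2, Plac8 at 5, Fgl2 at 172 and Ms4a4c at 1004. All 4 members passed the filter on low values in microglia, but Plac8 and Sectm1a did so through KO arrays alone.

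The response of WT microglia to IFN-b was large for Ms4a4c and Fgl2 in the KO run. In the C61A run the size for Ms4a4c turned on single untreated arrays. In WT of the KO run Ms4a4c was 6.35 log2 units higher at 6 h than untreated and Fgl2 4.94 higher, and at 24 h the values were 6.82 and 3.48. Sectm1a was 2.12 higher at 6 h and 0.44 at 24 h, and Plac8 0.63 and 0.34. The treated arrays of all 4 genes lay above the untreated ones at both times, as did 26.7% of genes at 6 h and 25.7% at 24 h. In WT of the C61A run, where untreated Fgl2 was already high, Fgl2 differed by 0.87 and 0.75 at 6 h and 24 h, Plac8 by 0.21 and 0.67, Sectm1a by 0.62 and 0.42, and Ms4a4c by 3.49 and 4.73. Its untreated Ms4a4c arrays read 9.74, on an array in doubt, and 3.83. With single arrays left out the Ms4a4c values ran from 0.53 to 6.44 at 6 h and from 1.78 to 7.69 at 24 h. In KO microglia, where Ms4a4c and Fgl2 started high, the treated-minus-untreated values were 0.30 and 0.66 at 6 h, but 1.79 for Plac8 and 2.96 for Sectm1a. At 24 h in KO they were 0.44 for Ms4a4c, 0.73 for Fgl2, 2.31 for Plac8 and 3.25 for Sectm1a.

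Fgl2 stood at different levels in the 2 runs. Untreated WT microglia read 11.81 and 10.48 for Fgl2 in the C61A run and 5.04 and 5.65 in the KO run. WT arrays correlated at 0.903 to 0.978 within the C61A run, at 0.855 to 0.982 within the KO run and at 0.754 to 0.899 between them, so run and Fgl2 level cannot be told apart across runs and each mutant was set against its own WT arrays. Cell markers differed between the runs too. In WT the mean of 9 astrocyte genes ran from 5.84 to 8.80 in the C61A run and from 5.09 to 5.79 in the KO run. C1qa read 10.87 to 11.28 and 12.92 to 13.35. The part of these differences in the Fgl2 level was not tested.

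In C61A microglia, whose Usp18 carries a mutated catalytic cysteine, none of the members passed the test against WT of the same run at any time. Plac8 read 3.73 and 3.14, 4.78 and 5.53, and 5.35 and 4.06 in C61A at 0, 6 and 24 h, against 4.05 and 3.50, 4.15 and 3.82, and 4.32 and 4.57 in WT. At 6 h both C61A arrays lay above both WT arrays, as they did for 13.7% of genes, by 1.17 ± 0.65 log2 units (SE, n = 2 each, 95% interval -0.22 to 2.56, limma adjusted p = 0.998), and at 24 h the arrays overlapped (0.26 ± 0.65, -1.13 to 1.65, adjusted p = 0.949). Sectm1a read 3.10 and 3.31, 4.41 and 3.40, and 3.75 and 3.88 in C61A, against 3.33 and 3.28, 3.89 and 3.95, and 3.47 and 3.98 in WT, and the arrays overlapped at each time. Its differences were -0.10 ± 0.70, -0.01 ± 0.70 and 0.09 ± 0.70, with an interval at 24 h of -1.41 to 1.60 (limma, adjusted p = 0.987). Each SE rests on a spread shared by all microglia groups, KO included. For Sectm1a the standard deviation was 2.06 in untreated KO and 1.38 in KO at 6 h. Within the C61A run it ran from 0.04 (untreated WT) to 0.71 (C61A at 6 h). The intervals therefore do not measure the spread of the C61A run alone. Of all 7960 genes limma called 0.0126% untreated, 0.0126% at 6 h and 0.0251% at 24 h. The difference between the C61A and the KO effect was not tested, since the KO values chose the members.

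Ms4a4c was high at 24 h in both genotypes of the C61A run and Fgl2 at every time, and the Ms4a4c differences turned on single arrays. Ms4a4c read 5.14 and 4.0 in untreated C61A microglia, 10.32 and 5.63 at 6 h and 11.93 and 12.03 at 24 h, against 9.74 and 3.83, 10.46 and 10.08, and 11.45 and 11.59 in WT. At 24 h both C61A arrays lay above both WT arrays on both Ms4a4c probe sets, as they did for 15.5% of genes. The standard deviation was 0.07 in C61A and 0.10 in WT at 24 h. It was 4.18 in untreated WT and 3.31 in C61A at 6 h, and the SE pools all groups. The C61A minus WT difference of Ms4a4c was -2.22 ± 1.42 untreated, -2.30 ± 1.42 at 6 h and 0.46 ± 1.42 at 24 h (limma, adjusted p = 1.00, 0.998 and 0.963). Without the arrays in doubt the first 2 values were 0.74 and 0.05, whereas without untreated WT replicate 2 the first was -5.17 and passed (adjusted p = 0.0340). Fgl2 read 9.67 and 10.24, 11.84 and 10.84, and 12.13 and 12.20 in C61A, against 11.81 and 10.48, 12.04 and 11.99, and 12.15 and 11.65 in WT. On this Fgl2 probe set both C61A arrays lay below both WT arrays at 0 h and 6 h, as they did for 13.9% and 14.1% of genes. The differences were -1.19 ± 0.48 (95% interval -2.21 to -0.17) and -0.67 ± 0.48, and neither passed over all genes (limma, adjusted p = 1.00 and 0.998). The second Fgl2 probe set had the same order at 0 h. Its difference was -1.22 ± 0.70 (95% interval -2.71 to 0.26) in a fit of every probe set without the filter. At 6 h its arrays overlapped, at 11.78 and 10.16 in C61A against 11.85 and 11.31 in WT. Markers of astrocytes moved within this run: the mean of 9 astrocyte genes was 9.12 and 7.16, 8.66 and 5.97, and 8.86 and 6.85 in C61A at the 3 times, against 7.08 and 8.80, 5.84 and 8.39, and 5.93 and 7.65 in WT. The part of these cells in the C61A values was not tested, and in bulk samples fewer cells of a type and less RNA per cell cannot be told apart.

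By group mean, Plac8, Sectm1a and Ms4a4c were highest in BV-2 cells after 24 h of IFN-b in the cells labelled Usp18 siRNA, and a single array at 6 h was also high for Ms4a4c and Fgl2. At 24 h Plac8 read 8.71 and 5.42, against 3.45 and 3.51 with control siRNA, and on all other BV-2 arrays it lay between 3.15 and 4.28. Sectm1a read 4.84 and 5.72 at 24 h with Usp18 siRNA, against 3.44 and 3.0 with control siRNA. Ms4a4c read 6.51 and 10.17, against 4.42 and 4.28. Thus for these 3 genes both siRNA arrays lay above both controls, as they did for 28.1% of all 12394 genes, while Fgl2 read 2.68 and 2.84, against 2.79 and 2.75. The replicates disagreed on the size, Plac8 being higher in replicate 1 and Ms4a4c in replicate 2.

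The filter on low values kept only Ms4a4c in BV-2 cells, which lay above the array median on 3 of 12 arrays, all labelled Usp18 siRNA, and so passed it only through the cells in which it was high. The other members were tested in a fit without that filter, added after the data had been seen. In it Sectm1a was 2.06 ± 0.30 log2 units higher with Usp18 siRNA than with control siRNA at 24 h (SE, n = 2 each, 95% interval 1.38 to 2.74) and passed (limma, adjusted p = 0.0210), among 1.30% of the 12394 genes. Plac8 was 3.58 ± 0.78 higher (1.83 to 5.33) and missed the threshold (adjusted p = 0.0575). Ms4a4c was 3.99 ± 1.53 higher in the filtered fit (0.53 to 7.44) and did not pass (adjusted p = 0.129), where 5.35% of 7163 genes did. The Sectm1a call was lost without either control array at 24 h or without siRNA replicate 2 (1.62 to 2.28, adjusted p from 0.113 to 0.151). Plac8 was 1.93 on siRNA replicate 2 alone and 5.22 on replicate 1 alone, each below the threshold (adjusted p = 0.00320 and 9.4e-05) where both arrays together missed it. In such a fit a lone array is assumed to vary like the other groups and the gap between the replicates is not counted, so these p-values do not show that the Plac8 difference is stable. Ms4a4c was 5.81 without siRNA replicate 1, which passed (adjusted p = 0.0350), and 2.16 without replicate 2. With the 6 h array that stood apart left out, the 24 h differences kept their size and Plac8 and Ms4a4c passed (adjusted p = 0.0450 and 0.0394). C1qa read 4.22 and 5.10 on these 24 h siRNA arrays and the mean of 12 resting microglia markers 5.79 and 5.92, against 3.54 and 4.14 and against 5.59 and 5.76 in the controls.

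The arrays labelled Usp18 siRNA were also set against their own untreated cells. These untreated replicates differed in interferon genes. The mean of 13 such genes was 6.53 in replicate 1 and 8.77 in replicate 2, against 5.55 and 6.01 with control siRNA. The part of this in the members' values was not tested. At 24 h Plac8 was 3.65 ± 0.78 and Sectm1a 2.00 ± 0.30 log2 units above untreated in the fit without the filter (limma, adjusted p = 0.0281 and 0.00893), where 6.86% of genes passed. Each was lost without either untreated siRNA array (adjusted p from 0.0627 to 0.191), and Sectm1a also without siRNA replicate 2 at 24 h (adjusted p = 0.0597). Ms4a4c was 3.60 ± 1.53 above untreated and did not pass (adjusted p = 0.134), beside 15.9% of genes in the filtered fit. With control siRNA the 24 h values were -0.03 for Plac8, 0.12 for Sectm1a, 0.41 for Ms4a4c and -0.13 for Fgl2, none of which passed. The filtered fit, where Ms4a4c was the only member tested, called 0.503% of genes, and the other members were tested without the filter. The difference between the 2 responses at 24 h was 3.68 ± 1.10 for Plac8, 1.88 ± 0.43 for Sectm1a and 3.19 ± 2.17 for Ms4a4c, and none passed (limma, adjusted p = 0.627, 0.493 and 0.585).

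At 6 h and before treatment no member passed in BV-2 cells. Ms4a4c read 4.87 and 4.59 in untreated cells with Usp18 siRNA, against 3.86 and 4.02 with control siRNA, and its difference of 0.79 ± 1.53 did not pass (limma, adjusted p = 1.00), as did 0% of genes. At 6 h it read 4.28 and 9.64, against 4.09 and 4.88, and Fgl2 read 2.16 and 11.43, against 2.89 and 2.58. Both high values belong to the array that stood apart with a C1qa of 9.96 and a mean of 7.83 over resting microglia markers, which lay between 5.36 and 5.92 on the other BV-2 arrays. Without that array Ms4a4c with Usp18 siRNA was -0.21 against control siRNA. The 6 h differences as labelled were 2.47 ± 1.53 for Ms4a4c (adjusted p = 0.474) and 3.77 ± 1.63 for probe set 1421854_at of Fgl2 (adjusted p = 0.393 without the filter), and 0% of genes passed in the filtered fit. With siRNA replicate 1 left out, so that the array in doubt stood alone, both passed (5.15 and 7.30, adjusted p = 0.0473 and 1.7e-07). Against untreated cells 0.991% of genes passed at 6 h with control siRNA and 1.97% with Usp18 siRNA, and Ms4a4c, the member tested there, was not among them as labelled.

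**Figure D2:**
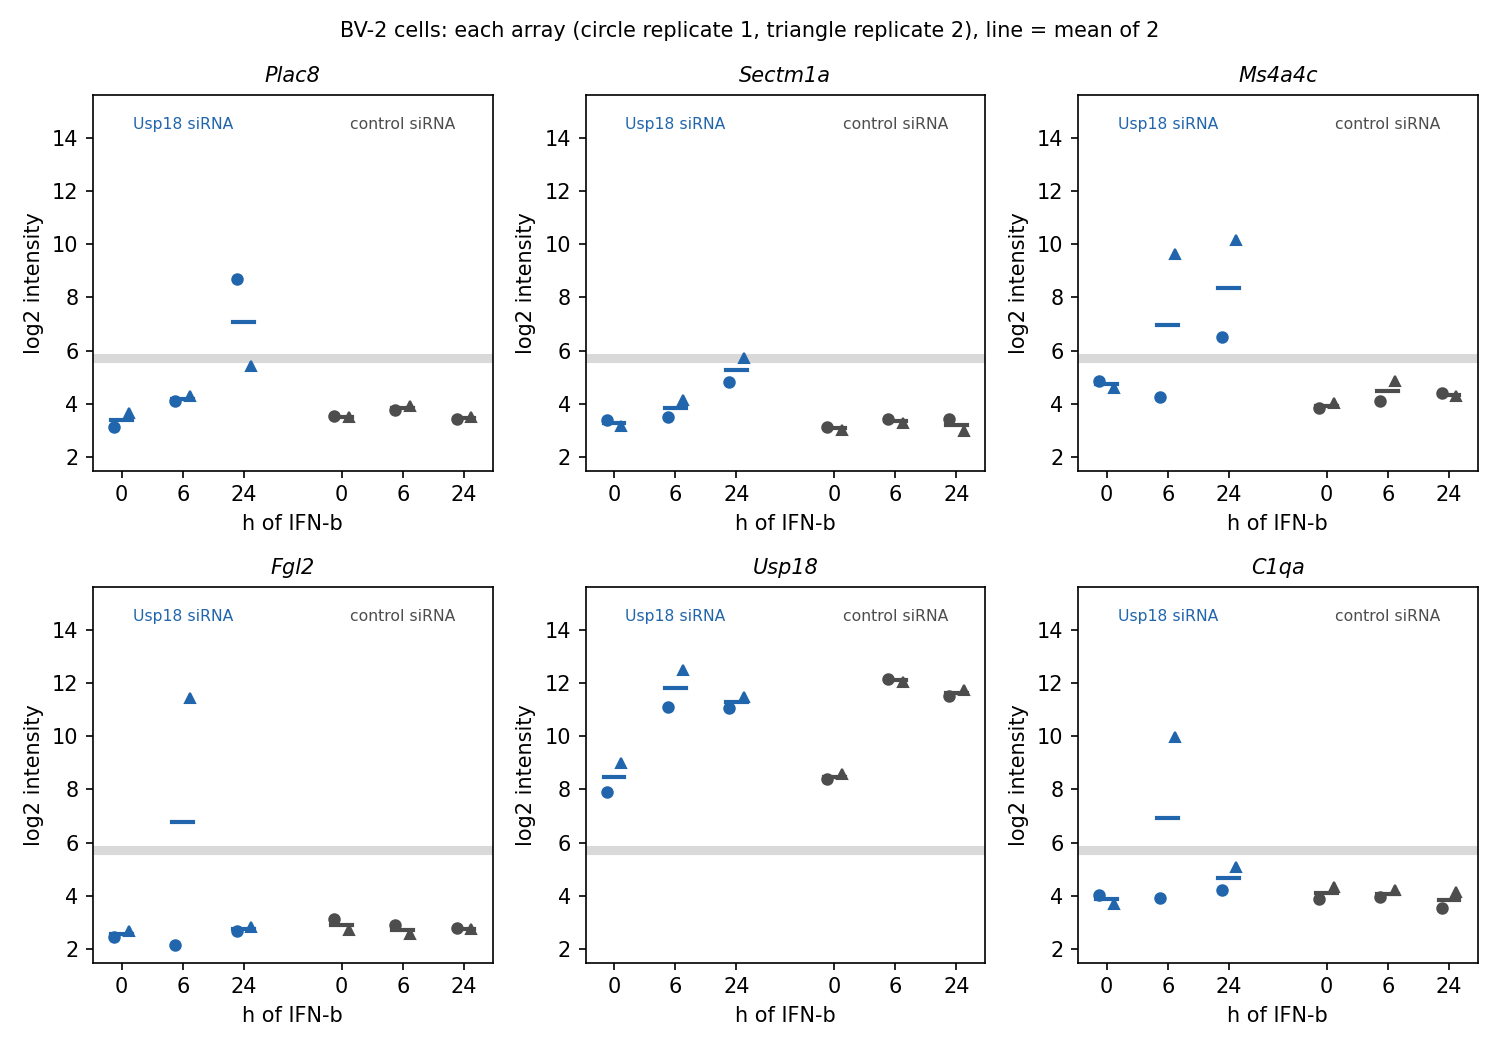
Log2 intensity (vertical axes) of the 4 members, Usp18 and C1qa on each of the 12 BV-2 arrays by hours of IFN-b (horizontal axes), cells labelled Usp18 siRNA on the left and control siRNA on the right; circles are replicate 1, triangles replicate 2, lines the mean of 2, and the grey band the range of array medians. At 24 h Plac8, Sectm1a and Ms4a4c lie higher with Usp18 siRNA, and the single high Fgl2 value (11.43) is on the array whose C1qa reads 9.96.

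**Figure D3:**
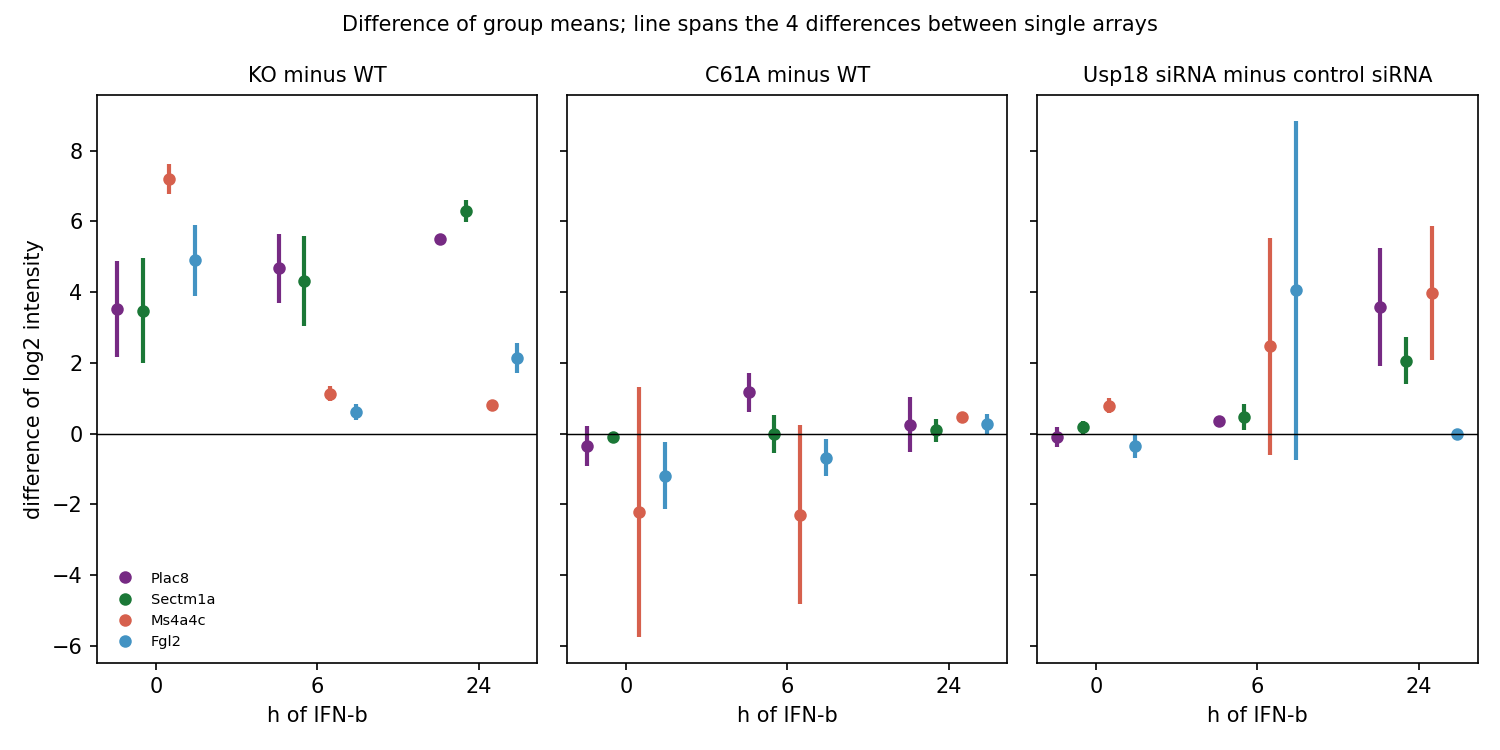
Difference of mean log2 intensity (vertical axis) of KO minus WT, C61A minus WT and Usp18 siRNA minus control siRNA by hours of IFN-b (horizontal axis) for the 4 members; points are differences of the means of 2 arrays and lines span the 4 differences between single arrays. Plac8 and Sectm1a reach 5.49 and 6.30 in KO at 24 h and 3.58 and 2.06 with Usp18 siRNA at 24 h, and lie at 0.26 and 0.09 in C61A.

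The members have been called monocyte-like, and the markers of monocytes were therefore read beside them. Of 19 listed monocyte genes 14 were on the array and 9 were tested in microglia, and in untreated KO cells 1 was higher and 1 lower than in WT, where 16.8% of all genes passed (637 higher and 699 lower). Napsa, a protease, rose by 1.92 ± 0.48 log2 units (limma, adjusted p = 0.0163), and F13a1, a subunit of coagulation factor XIII, fell by 3.41 ± 1.02 (adjusted p = 0.0352). At 6 h 0 of 9 passed, beside 8.32% of all genes (229 higher and 433 lower). At 24 h 1 of 9 did, beside 29.1% of all genes (903 higher and 1410 lower): the integrin Itga4, at 6.08 and 6.26 in KO against 5.33 and 5.04 in WT (adjusted p = 0.0492). The median KO minus WT value of the list was 0.18, -0.03 and 0.28 at the 3 times, against -0.10, -0.08 and -0.07 over all genes. Ccr2, the receptor that classical monocytes need to leave the marrow, lay between 3.56 and 4.53 in KO and between 3.03 and 3.40 in WT, below every array's median, and Chil3 did not exceed 2.86 on any array. The mean over the 14 genes ran from 5.90 to 6.74 in KO and from 5.92 to 6.51 in WT. The genes are therefore called by their names here.

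**Figure D4:**
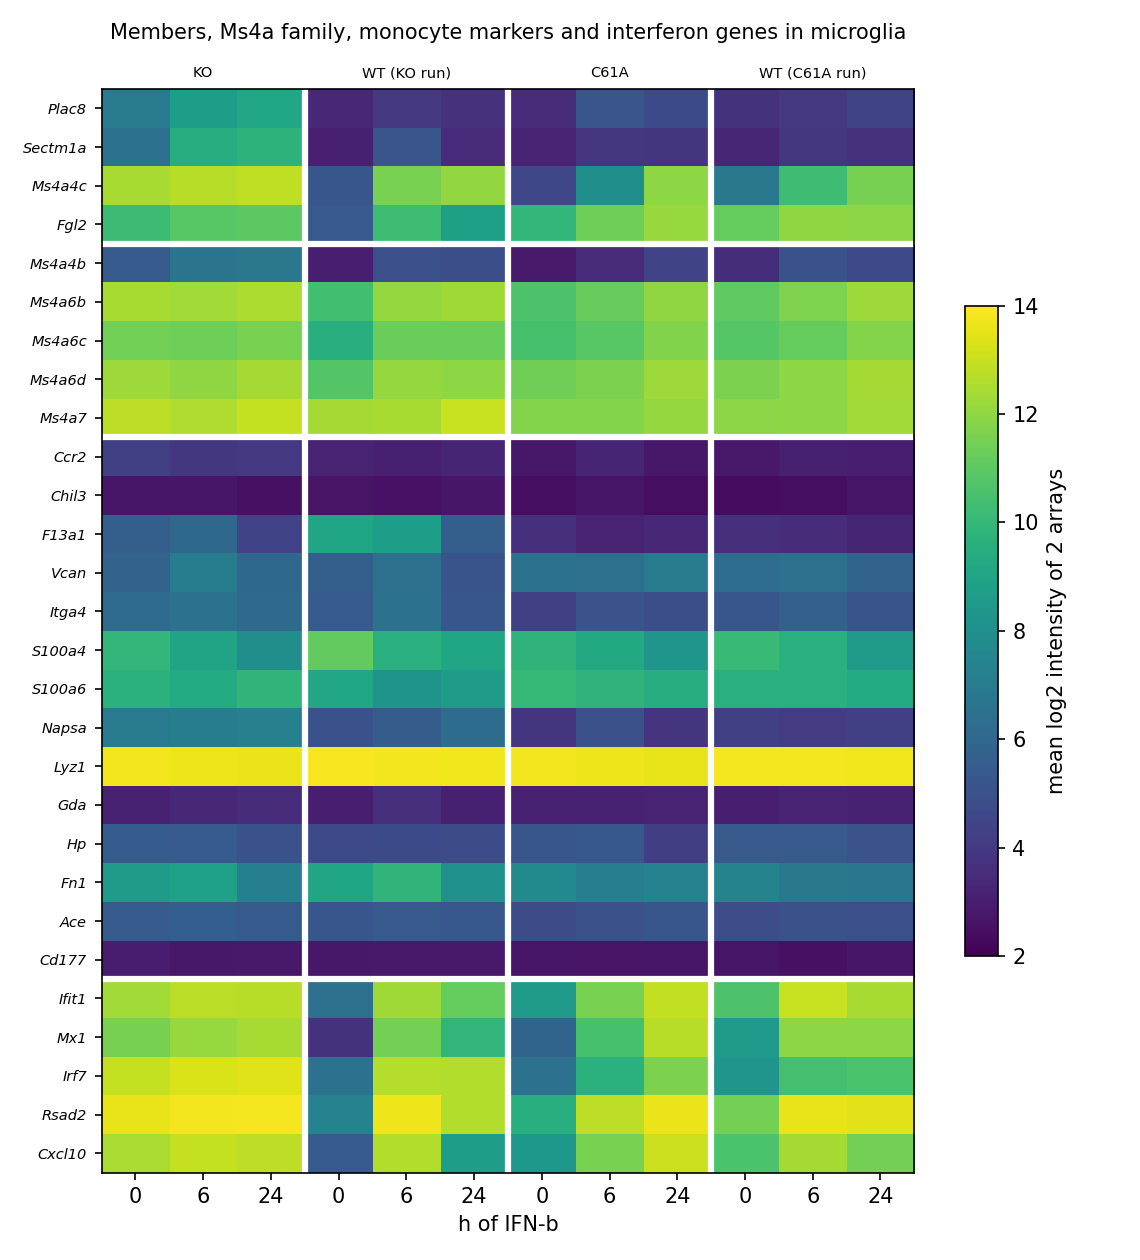
Mean log2 intensity of 2 arrays (colour) for the 4 members, 5 genes of the Ms4a family, the 14 monocyte markers on the array and 5 interferon genes (rows) in the 12 microglia groups by hours of IFN-b (columns). Plac8 and Sectm1a are bright in the KO columns, Ms4a4c is bright in KO and in the 24 h columns of every genotype, and Ccr2 and Chil3 are dark throughout.

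Markers of other cells were also read in the KO run. Neuron genes had a mean of 4.19 to 4.35 in KO replicate 1 and 5.16 to 5.43 in KO replicate 2 over the 3 times, against 3.65 to 4.59 in WT, and up to 3 of 6 lay above the array median in KO. Astrocyte genes had a mean of 4.71 to 5.96 in KO and 5.09 to 5.79 in WT (up to 5 of 9 above the median in KO), and oligodendrocyte genes 5.62 to 6.24 in KO and 5.18 to 5.88 in WT (up to 4 of 7 in both). In untreated KO cells, where 16.8% of all genes passed, 1 of 8 astrocyte genes tested was lower (Glul) and 1 of 4 oligodendrocyte genes higher (Cnp). Of 3 neuron genes 0 passed. Granulocyte genes were above the array median on 0 of 12 arrays of the KO run (0 of 8 genes each), and their mean ran from 3.86 to 4.09 in KO and from 3.65 to 3.91 in WT. Of 3 lymphocyte genes tested, 1 was higher in KO at 24 h, beside 29.1% of all genes in either direction. It was Il7r, the interleukin-7 receptor, at 10.88 and 10.48 against 6.33 and 6.61 in WT (4.21 ± 0.81, limma, adjusted p = 0.00202). Cd3e, a part of the T-cell receptor complex, stayed between 4.72 and 5.26 in KO and between 4.47 and 5.24 in WT. Of 11 resting microglia genes tested, 3 were lower in untreated KO and 0 higher, beside 16.8% of all genes in either direction: Gpr34, Cx3cr1 and Fcrls fell by 4.85, 1.72 and 1.05 (limma, adjusted p = 2.9e-05, 0.0309 and 0.0239). At 6 h 2 were lower (Cx3cr1 and Fcrls) and 1 higher (Mertk, 1.24 ± 0.31, limma, adjusted p = 0.0269), beside 8.32% of all genes. At 24 h 4 were lower and 0 higher, beside 29.1% of all genes. Mrc1, a mannose receptor of border macrophages, fell by 3.90 (adjusted p = 0.00239), 1 of 3 tested. C1qa was level, at 13.02 to 13.22 in KO and 12.92 to 13.35 in WT. The part of these shifts in the members' values was not tested.

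Relatives of Ms4a4c were also higher in untreated KO microglia. Of 11 Ms4a genes on the array 6 were tested. In untreated KO microglia 3 were higher and 0 lower, beside 16.8% of all genes in either direction. Ms4a6b read 12.57 and 12.26 in KO against 10.38 and 10.38 in WT (2.03 ± 0.19, limma, adjusted p = 2.7e-05). Ms4a6c rose by 1.91 ± 0.31 (adjusted p = 0.00163) and Ms4a6d by 1.45 ± 0.13 (adjusted p = 1.5e-05), while Ms4a7 differed by 0.42 ± 0.17 and Ms4a4b by 2.40 ± 0.81 without passing (adjusted p = 0.107 and 0.0561). The median of the 6 was 1.68, against -0.10 over all genes. At 6 h 0 passed, beside 8.32% of all genes. At 24 h 1 did, beside 29.1% of all genes: Ms4a6d (0.44 ± 0.13, limma, adjusted p = 0.0187). In BV-2 cells at 24 h Ms4a6b read 6.36 and 9.87 with Usp18 siRNA, against 3.12 and 3.07 with control siRNA, and Ms4a6c 6.60 and 9.79, against 3.77 and 3.98. As with Ms4a4c replicate 2 was the higher and neither passed (adjusted p = 0.151 and 0.164). Sectm1b, the paralogue of Sectm1a, stayed between 2.77 and 3.77 on all 36 arrays, and Cd7 between 4.12 and 5.29.

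Fibrinogen and coagulation genes, the setting in which Fgl2 works, were listed together with the Fc receptors Fcgr2b and Fcgr3. Of 17 genes of this list on the array 9 were tested. In untreated KO microglia 3 were lower and 0 higher, beside 16.8% of all genes in either direction. They were F13a1, the Fc receptor Fcgr3 (-2.14 ± 0.58, limma, adjusted p = 0.0239) and thrombomodulin, Thbd (-2.05 ± 0.52, adjusted p = 0.0179). At 6 h 1 was lower, beside 8.32% of all genes in either direction. It was Fcgr2b, the receptor of secreted Fgl2, at 8.72 and 8.83 in KO against 10.03 and 10.49 in WT (-1.48 ± 0.34, limma, adjusted p = 0.0187). At 24 h, where 29.1% of all genes passed, the protein C receptor Procr rose by 2.24 ± 0.66 (limma, adjusted p = 0.0202). Thbd, Fcgr3 and Tfpi fell by 2.26, 1.84 and 1.69 (adjusted p = 0.00601, 0.0286 and 0.00549). The median of the list was -1.12, -0.83 and -0.73 at the 3 times, against -0.10, -0.08 and -0.07 over all genes.

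Of 12 transcription factors of the monocyte and macrophage lineage, 0 passed in untreated KO cells, where 16.8% of all genes did. At 6 h, where 8.32% did, Klf4 rose by 2.92 ± 0.54 (limma, adjusted p = 0.00714) and Spi1, the factor PU.1, fell by 0.86 ± 0.25 (adjusted p = 0.0456). At 24 h 3 were higher and 1 lower, 4 of 12 beside 29.1% of all genes. Klf4, a factor of monocyte differentiation, read 7.49 and 8.55 in KO against 4.14 and 3.36 in WT (4.27 ± 0.54, adjusted p = 0.000198). Egr1 rose by 2.70 ± 0.89 and Id2 by 0.86 ± 0.30, and Cebpa fell by 2.24 ± 0.70 (adjusted p = 0.0338, 0.0472 and 0.0278).

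Interferon genes were high in untreated KO microglia, as Ms4a4c was. Of 13 tested 12 were higher in untreated KO than in WT, beside 16.8% of all genes in either direction. They were led by Mx1 (7.83 ± 1.71), Cxcl10 (7.06 ± 1.06), Irf7 (6.47 ± 1.08) and Oasl1 (6.46 ± 0.77, limma, adjusted p = 0.00849, 0.000984, 0.00203 and 0.000219). The median was 5.87, against -0.10 over all genes. At 24 h 2 were higher, beside 29.1% of all genes in either direction: Cxcl10 (4.15 ± 1.06) and Oasl1 (2.58 ± 0.77, limma, adjusted p = 0.0102 and 0.0221). Sectm1a and Plac8 then had their widest KO minus WT differences. In BV-2 cells 3 of 13 were higher with Usp18 siRNA at 24 h, where 3.07% of genes were called higher and 2.28% lower: Cxcl10 (5.22 ± 0.42), Mx1 (4.15 ± 1.01) and Mx2 (3.36 ± 0.78, adjusted p = 0.00101, 0.0487 and 0.0452). BV-2 cells with control siRNA responded to IFN-b in 11 of 13 of these genes at 6 h and 8 of 13 at 24 h. Over all genes of that filtered fit the shares were 0.991% and 0.503%, and Ms4a4c, the only member tested there, was not called. The other members did not pass in the fit without the filter.

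Over the 12 microglia group means Plac8 and Sectm1a ran together (Pearson r = 0.962), and the other pairs of members lay between 0.200 and 0.613, a description over groups that share arrays and runs. Among genes other than the members, those most like Plac8 were Tcstv3 (0.973), Smc5 (0.963) and Sct (0.958), and those most like Sectm1a were Aplnr (0.989), the apelin receptor, Mxd1 (0.986) and Tcstv3 (0.981). Aplnr read 7.96 and 5.63 in untreated KO microglia and 2.87 and 2.94 in WT, the same order of KO replicates as Plac8 and Sectm1a, but in BV-2 cells it lay between 2.58 and 3.26 on all arrays. Ms4a4c was most like Stat2 (0.983), Ms4a6b (0.982) and Epsti1 (0.982), and Fgl2 like the cholesterol exporter Abcg1 (0.974), Gbp3 (0.961) and Acod1 (0.950), the enzyme that makes itaconate.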

How the data were processed

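The deposited values are log2 intensities per probe set, inferred from their range, and the submitters' processing notes name affy. How probe sets were summarised, and with which version, is not stated there. No further normalization was applied. Probe sets were named from the platform annotation and promoters taken from RefSeq (GRCm38.p6). Probe sets that exceeded the array median on fewer than 2 of the fitted arrays were dropped, and each gene was represented by the brightest of those remaining. Promoter motifs were planned over 300 bases around the start and are shown for the 250 before each RefSeq start. The Ms4a4c window and the downstream Plac8 window lie inside their gene spans, and the upstream Plac8 window overlaps its span in part. Group means were fitted with limma 3.58.1 (R 4.3.3) over 24 microglia arrays (7960 genes) and over 12 BV-2 arrays (7163 genes), with moderated tests, Benjamini-Hochberg adjustment over all genes and a threshold of 0.05. Intervals are 95%. The test was checked on simulated data. With 2 arrays a group, the number of arrays limits the precision. Members and gene lists were chosen with earlier results of these data known. Named were the members, Usp18, up to 4 called genes with the largest change per list and comparison, and the 3 genes most like each member. Ccr2, Chil3, C1qa, Cd3e, Cd7, Sectm1b, Ms4a7, Ms4a4b and the BV-2 values of Ms4a6b and Ms4a6c were named after their values were seen. Figures were drawn with matplotlib 3.10.9.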

Additional observations from a re-analysis of the deposited data

How the results depend on the processing

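Each value was recomputed with another normalization, filter, probe set choice, prior, block, set of arrays in the fit, and with single arrays or the 3 arrays in doubt left out. The fit without the filter and its alternatives were chosen after seeing the data. Among the 10 tested comparisons 0 members passed in the fits as planned. For Usp18 siRNA minus control siRNA at 24 h the count was 1 without the filter, 1 without the arrays in doubt and 2 with all 36 arrays in 1 fit. For the 24 h response with Usp18 siRNA it was 2 without the filter, 1 with culture as a random block, 1 without the arrays in doubt and 2 with all 36 arrays. Leaving out single arrays gave counts of 0 to 1 for C61A minus WT untreated, for Usp18 siRNA minus control siRNA at 6 h and 24 h, and for both responses with Usp18 siRNA. Without the filter they were 0 to 2 for Usp18 siRNA minus control siRNA and for the siRNA response at 24 h, and 0 to 1 for both at 6 h. A lone array left in a group was assumed to vary like the other groups. Without the arrays in doubt the C61A minus WT value of Ms4a4c turned to 0.74 untreated and 0.047 at 6 h, that of Sectm1a at 6 h to 0.49 (0.0041 after quantile normalization), and Ms4a4c at 6 h turned to -0.21 for Usp18 siRNA minus control siRNA and to -0.45 for the siRNA response. Without the filter the 24 h response of Plac8 with control siRNA turned to 0.0020 after quantile normalization, and that of Fgl2 with Usp18 siRNA was 0.19 by probe set 1421855_at. With single arrays left out, C61A minus WT ran from -5.17 to 0.74 (untreated) and -4.64 to 0.047 (6 h) for Ms4a4c, from -0.20 to 0.0087, -0.52 to 0.49 and -0.16 to 0.35 at the 3 times for Sectm1a, and from -0.38 to 0.90 at 24 h for Plac8. Ms4a4c at 6 h ran from -0.21 to 5.15 (siRNA minus control) and from -0.45 to 4.91 (siRNA response). KO minus WT ran from 2.29 to 4.74 for Plac8, 2.02 to 4.94 for Sectm1a and 4.20 to 5.59 for Fgl2 untreated, and from 3.81 to 5.53 for Plac8 and 3.34 to 5.29 for Sectm1a at 6 h. Without the filter the untreated siRNA difference ran from -0.37 to 0.16 for Plac8 and -0.22 to 0.022 for Fgl2, and the 24 h control response of Sectm1a from -0.094 to 0.34. With the replicate block 0 members passed in all 10 comparisons of the filtered fits, and without the filter Plac8 passed at 24 h (adjusted p = 0.0294, limma). Same-numbered arrays deviated together across siRNAs in BV-2 cells (correlations 0.322 to 0.506) and not across genotypes in microglia (-0.460 to -0.044). Across times they deviated together in each kind of cell. The correlations were 0.310 to 0.759 with control siRNA, 0.412 to 0.526 with Usp18 siRNA, and from 0.296 (WT of the C61A run) to 0.811 (KO) in microglia. With only 2 numbers a comparison, the arrays were not taken as paired. Beyond what fewer arrays or genes do by construction, the cause was not tested.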
